A study of Mus musculus with 18 samples.

Results

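The 76 genes described here carry symbols of mitochondrial ribosomal proteins. They were chosen by that name alone, as every gene whose symbol on the array platform begins with Mrpl or Mrps followed by a digit. They were 76 of the 18193 genes that the platform named through probe sets with a single symbol, 47 with the prefix Mrpl, named for the large subunit, and 29 with the prefix Mrps, named for the small subunit. All counts by subunit follow these prefixes, although the proteins of Mrps18a and Mrps30 are known to sit in the large subunit. Each gene was read from 1 probe set, the one with the highest mean over the 18 arrays, and 42 of the 76 had more than 1 to choose from. Mrpl30 and Mrpl53 were measured only by probe sets shared with another gene and were not analysed here.

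The study measured RNA from mouse ventricular myocardium on 18 Affymetrix arrays in 4 groups and asked, by its design, how leptin and food intake each bear on the heart of leptin-deficient mice. Wild type C57Bl/6J mice (n = 4) were 6 months old by their sample labels and between 6 and 8 months by the design text. The other 3 groups were ob/ob mice on the C57Bl/6J background, which carry a mutation that leaves them without functional leptin, and all were fed ad libitum to 6 months before treatment. For 1 month they then stayed on ad libitum food (n = 4), received recombinant mouse leptin from an osmotic mini-pump (n = 5), or were calorie restricted to the intake of the leptin mice (n = 5). The last group therefore had less food and still no leptin, and the wild type mice had no treatment period. The labels do not say whether each array came from a different mouse, and the p-values measure the spread between arrays of a group.

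Mitochondrial ribosomes sit in the mitochondrial matrix and translate the few messenger RNAs that mitochondrial DNA encodes, all of them core subunits of the respiratory chain and of ATP synthase. Their ribosomal RNAs come from mitochondrial DNA, but every one of their proteins is encoded in the nucleus, made in the cytosol and imported. Some of these proteins have bacterial counterparts and others exist only in mitochondria, and in humans mutations in several of them cause disease of the heart muscle. The small subunit decodes the message, and the large subunit joins the amino acids.

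Promoters were looked at because nuclear genes for mitochondrial proteins are known to share binding sites for NRF1, for GABP (an ETS factor) and for YY1. The sequences below run from 250 bases before to 50 bases after the annotated start of the 6 genes that were called in more than 1 comparison. They come from RefSeq on build GRCm38.p6 and are written 5′ to 3′ on the gene's strand. Capitals mark matches, on either strand, to the ETS/GABP motif CCGGAAG, to a YY1 motif, which is the run in capitals in Mrpl37, or to an NRF1 motif, which forms the longer run in capitals in Mrps26 and leaves 1 base free.
Mrpl34: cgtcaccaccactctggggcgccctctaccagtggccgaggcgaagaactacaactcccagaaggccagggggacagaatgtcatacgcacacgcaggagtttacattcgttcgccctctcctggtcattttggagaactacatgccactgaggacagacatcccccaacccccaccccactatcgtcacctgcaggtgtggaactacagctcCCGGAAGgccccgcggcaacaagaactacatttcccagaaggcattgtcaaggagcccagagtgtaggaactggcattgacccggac
Mrpl3: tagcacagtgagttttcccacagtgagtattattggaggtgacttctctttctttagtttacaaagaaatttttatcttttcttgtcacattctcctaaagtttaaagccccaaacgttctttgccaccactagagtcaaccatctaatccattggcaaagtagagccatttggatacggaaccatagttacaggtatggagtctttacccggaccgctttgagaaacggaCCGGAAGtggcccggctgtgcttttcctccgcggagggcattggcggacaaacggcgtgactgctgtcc
Mrpl36: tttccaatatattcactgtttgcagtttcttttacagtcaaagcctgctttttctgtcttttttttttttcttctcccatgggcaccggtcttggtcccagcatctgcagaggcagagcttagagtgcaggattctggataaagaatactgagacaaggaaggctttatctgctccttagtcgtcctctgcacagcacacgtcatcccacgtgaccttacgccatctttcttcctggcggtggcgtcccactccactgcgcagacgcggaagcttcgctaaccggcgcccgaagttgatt
Mrpl37: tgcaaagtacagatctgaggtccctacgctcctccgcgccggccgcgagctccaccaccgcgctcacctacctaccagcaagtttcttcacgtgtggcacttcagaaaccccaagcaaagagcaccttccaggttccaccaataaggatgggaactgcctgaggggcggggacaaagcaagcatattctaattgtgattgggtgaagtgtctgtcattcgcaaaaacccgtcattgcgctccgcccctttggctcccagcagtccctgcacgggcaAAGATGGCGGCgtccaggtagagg
Mrps10: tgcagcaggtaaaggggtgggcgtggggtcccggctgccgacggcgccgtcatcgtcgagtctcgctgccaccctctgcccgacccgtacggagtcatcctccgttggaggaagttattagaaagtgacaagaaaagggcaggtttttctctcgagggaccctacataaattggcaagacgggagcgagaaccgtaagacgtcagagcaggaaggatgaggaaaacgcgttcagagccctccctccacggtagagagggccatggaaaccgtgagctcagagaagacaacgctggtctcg
Mrps26: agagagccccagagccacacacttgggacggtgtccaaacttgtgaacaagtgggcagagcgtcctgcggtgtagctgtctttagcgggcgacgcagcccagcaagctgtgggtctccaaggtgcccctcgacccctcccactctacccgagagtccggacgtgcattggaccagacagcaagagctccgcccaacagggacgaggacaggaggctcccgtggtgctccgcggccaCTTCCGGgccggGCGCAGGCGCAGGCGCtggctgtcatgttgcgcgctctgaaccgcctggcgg
The Mrpl34 window lies at chr8:71464676-71464975 on the plus strand and holds an ETS match that begins at position -37 from the start. Mrpl3, at chr9:105053018-105053317 on the plus strand, has an ETS match at -19. Mrpl37, at chr4:107066817-107067116 on the minus strand, has a YY1 match at 26, downstream of the start. Mrps26, at chr2:130563507-130563806 on the plus strand, holds an ETS match at -14 and 2 overlapping NRF1 matches at -2 and 4. Mrpl36, at chr13:73330759-73331058 on the plus strand, and Mrps10, at chr17:47368947-47369246 on the plus strand, held none of these letters in this window. The 2 genes with no match moved in opposite directions in the comparisons that follow, as did the 3 genes with an ETS match.

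Promoter windows were listed for 67 of the 76 genes. CCGGAAG was found in 25 of them (37.3%), against 9.93% of the 27025 genes with a listed promoter. The NRF1 motif was found in 12 (17.9%, against 5.19%) and the YY1 motif in 5 (7.46%, against 0.755%). Among the 11 genes with a window that passed a test in some comparison, 5 held the ETS letters, 2 the NRF1 letters and 1 the YY1 letters. These matches describe the sequence and were not tested as binding sites.

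The deposited signals were scaled to the same trimmed mean of 100.001 on every array, so a change in total RNA could not be seen. Changes are given as differences of log2(signal + 5.13), and a call means a limma p under 0.05 after Benjamini-Hochberg adjustment over the 13359 genes tested. All 76 genes passed the filter on low signal. Their mean log2 levels ran from 7.44 to 11.3, all above the filter of 4.36. They varied little between arrays of a group: the within-group SD had a median of 0.13 on the log2 scale, against 0.22 over all genes, and ran from 0.058 for Mrpl2 to 0.38 for Mrpl52.

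The 9 ventricular muscle markers summed to between 50236 and 75433 in signal on the 18 arrays, and none was called in any comparison. Their sums were 50912 to 55678 in wild type and 50236 to 67386 in leptin hearts. Ad libitum hearts, at 56716 to 65813, and calorie restricted hearts, at 58816 to 75433, lay wholly above wild type. All 9 changes were above 0 in each ob/ob group against wild type, with medians of 0.17 (ad libitum), 0.26 (calorie restricted) and 0.20 (leptin). The atrial muscle markers, whose 6 genes include Myl7, Sln and Nppa, set 2 arrays apart. Their summed signal was 14732 in calorie restricted replicate 2 and 15328 in replicate 3, but 1255 to 2980 on the other 3 calorie restricted arrays. It was 1313 to 3122 in wild type, 581 to 2267 in ad libitum and 1561 to 2824 in leptin hearts. Counts and named calls that involve calorie restriction are therefore also given without these 2 arrays.

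Markers of other cell types also moved with calorie restriction. The summed signal of 8 fibroblast markers was 3937 to 5175 in calorie restricted hearts, below the 5390 to 6564 of leptin hearts and overlapping the 5124 to 5871 of ad libitum hearts. Of these 8, the same 5 were called lower than in ad libitum hearts, lower than in wild type and higher in leptin than in calorie restricted hearts. They were Col1a1, Col1a2, Col3a1, Lum and Postn, while Pdgfra, Dcn and Tcf21 were not called. In each comparison 1 of the 8 changed in the opposite direction. Of all genes tested, 2.96% were called lower than in ad libitum, 6.24% lower than in wild type and 7.91% higher in leptin hearts. The 9 macrophage markers summed to 1842 to 2605 in calorie restricted and 3200 to 4459 in leptin hearts, with 7 of 9 called higher with leptin, 3 lower than in ad libitum and 7 lower than in wild type hearts. Endothelial markers were called lower for 2 of 7 against ad libitum and higher for 3 of 7 with leptin, and no marker of these lists was at or under the pseudocount on every array. A smooth muscle marker, Tagln, went the other way and was called higher in calorie restricted than in ad libitum (0.59) and wild type hearts (0.51), and 1 red blood cell and 1 skeletal muscle marker were called lower than in wild type. Without replicates 2 and 3, the fibroblast, macrophage and endothelial counts with leptin over calorie restriction were again 5 of 8, 7 of 9 and 3 of 7. Against ad libitum hearts they dropped to 3, 0 and 0, against wild type they were 5, 7 and 0, and no smooth muscle marker was called. Their part in the changes of the mitochondrial ribosomal protein genes was not tested. In whole tissue, fewer cells of a type and less RNA per cell cannot be told apart.

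Taken as a group, the 76 genes hardly moved. Each array's level was summarised as the mean deviation, over the 76 genes, from each gene's mean over 18 arrays on the log2 scale. It was -0.0036 ± 0.084 in wild type (SD, n = 4), 0.022 ± 0.065 in ad libitum (SD, n = 4), -0.038 ± 0.084 in calorie restricted (SD, n = 5) and 0.023 ± 0.032 in leptin hearts (SD, n = 5). The ranges of the 4 groups overlapped. The lowest arrays were calorie restricted replicates 2 and 3, both at -0.11, and the highest was wild type replicate 1 at 0.12.

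**Figure D1:**
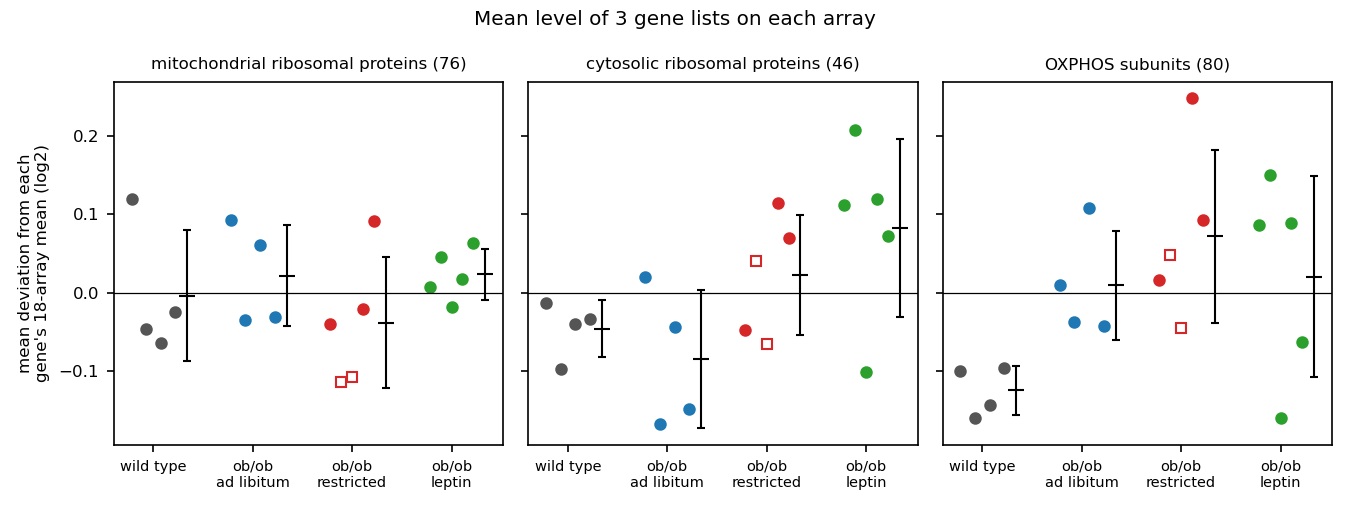
Mean deviation of each array from the genes' 18-array means (log2, vertical axis) for the 76 mitochondrial ribosomal protein genes, 46 cytosolic ribosomal protein genes and 80 oxidative phosphorylation subunit genes, by group. Each point is 1 array, open squares are calorie restricted replicates 2 and 3, and black marks are group means ± SD; in the left panel the group means lie between -0.038 and 0.023 and the groups overlap.

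Of the 76 genes, 12 were called in at least 1 of the 6 comparisons between groups and 64 in none. A limma F test of any difference among the 4 groups called 6 of them (12.2% of all genes tested): Mrpl34 (adjusted p = 0.00245), Mrps10 (0.00598), Mrps26 (0.0110), Mrpl3 (0.0113), Mrpl36 (0.0218) and Mrpl37 (0.0224). Without calorie restricted replicates 2 and 3, 2 of these calls were left, Mrpl34 and Mrps10. The 3 comparisons that leave out the calorie restricted hearts gave no call among the 76 genes, and all calls came from the other 3, which share those 5 arrays. All genes tested were split in the same way. Without calorie restricted hearts 0.299% (ad libitum against wild type), 0.644% (leptin against ad libitum) and 0.00749% (leptin against wild type) were called. With them it was 5.42% (against ad libitum), 13.6% (against leptin) and 11.3% (against wild type).

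**Figure D2:**
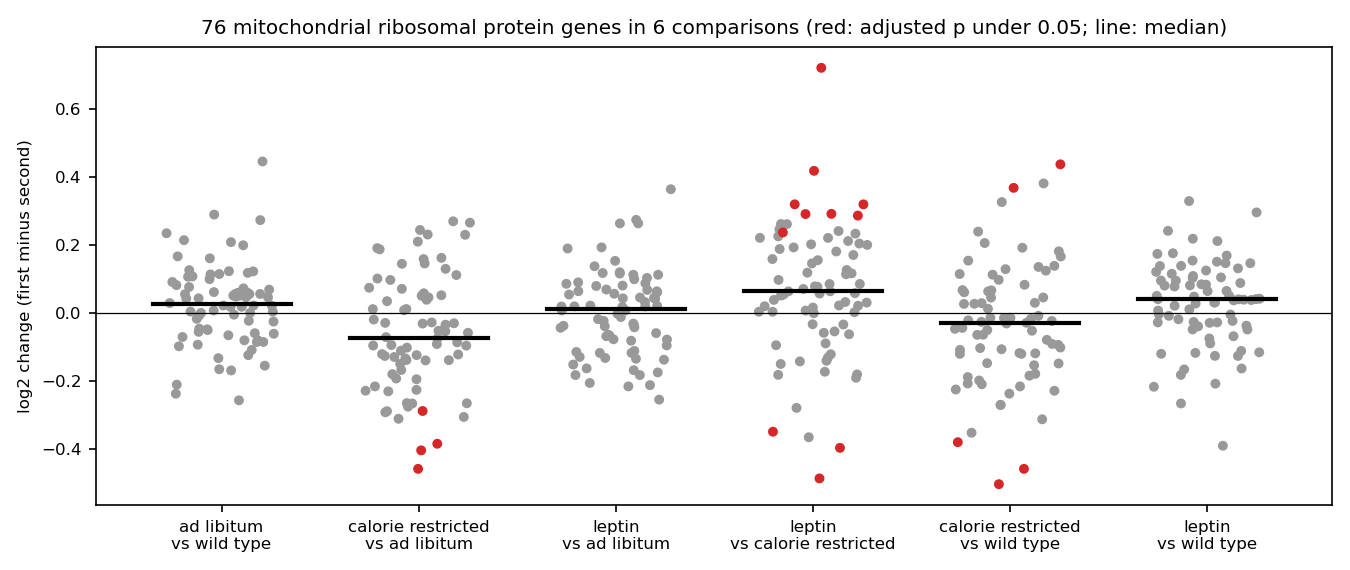
Log2 change (first group minus second) of the 76 genes in each of the 6 comparisons; each point is 1 gene, red marks an adjusted p under 0.05 and the black line is the median. Red points appear only in the 3 comparisons that include calorie restricted hearts, where 4, 11 and 5 genes were called, and all 6 medians lie between -0.072 and 0.065. In those 3 comparisons 5.42%, 13.6% and 11.3% of all genes tested were called.

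Ad libitum ob/ob hearts, without functional leptin, were also compared with wild type hearts. This comparison did not separate leptin deficiency from food intake or from the treatment period, which the wild type mice did not have. None of the 76 genes was called by limma, where 0.299% of all genes tested were (0.112% higher, 0.187% lower), and 4 had an unadjusted p under 0.05 (10.3% of all genes). The median change was 0.027, against 0.0022 over all genes, with 48 genes above 0. Mrps18a and Mrpl14 had the smallest p-values. Mrps18a, one of 3 paralogs related to a single bacterial protein, had signals of 948, 856, 822 and 1007 in wild type and 1291, 1079, 1278 and 1309 in ad libitum hearts. All ad libitum arrays lay above all wild type arrays. The log2 difference was 0.45 ± 0.14 (SE), with a limma adjusted p of 0.215. Mrpl14, a large subunit protein with a bacterial counterpart, read 711, 632, 631 and 699 in wild type and 928, 767, 791 and 790 in ad libitum hearts. These groups did not overlap either, and the difference was 0.29 ± 0.099 (SE; limma adjusted p = 0.290). Together with Mrpl16 they made 3 of 76 genes whose groups did not overlap, where 7.06% of all genes tested did not.

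In calorie restricted hearts, 4 large subunit genes fell against ad libitum ob/ob hearts and none rose, a comparison of food intake with leptin absent on both sides. Mrpl3, Mrpl34, Mrpl28 and Mrpl37 were 1.22- to 1.37-fold lower. These 4 of 76 genes compare with 5.42% of all genes tested, 2.96% lower and 2.46% higher, so the share of members called was near that of the array. A further view of the list gave 20 genes with an unadjusted p under 0.05 (19.1% of all genes), 49 genes below 0 and a median of -0.072, against -0.0016 over all genes. No small subunit gene was called, and the small subunit median was -0.095 against -0.051 for the large subunit. With calorie restricted replicates 2 and 3 left out, these medians were -0.077 and 0.021, and that over the 76 genes was -0.030.

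Mrpl3, a conserved core protein of the large subunit whose human gene is mutated in a mitochondrial cardiomyopathy, had signals of 704, 710, 734 and 623 in ad libitum hearts. In calorie restricted hearts it read 591, 477, 474, 495 and 583, every array below every ad libitum array. Its log2 change was -0.40 ± 0.094 (SE; limma adjusted p = 0.0186). The further Mrpl3 probe sets above the filter on low signal gave -0.36 and -0.27, the same direction, without passing the threshold. Mrpl34, a small protein with a bacterial counterpart, read 559, 496, 555 and 536 in ad libitum and 394, 329, 362, 396 and 479 in calorie restricted hearts. Again the groups did not overlap, and the change was -0.46 ± 0.12 (SE; limma adjusted p = 0.0317). The other Mrpl34 probe set, whose mean signal of 48.7 is far dimmer, gave -0.080 and was not called.

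Mrpl28, another large subunit protein with a bacterial counterpart, fell by 0.38 ± 0.11 on the log2 scale (SE; limma adjusted p = 0.0427). Its signals were 1508, 1361, 1435 and 1326 in ad libitum hearts and 965, 1152, 1022, 948 and 1341 in calorie restricted hearts, so that replicate 5 reached into the ad libitum range. The other Mrpl28 probe sets gave -0.23 and 0.16 and were not called. Mrpl37, a protein found only in mitochondrial ribosomes, read 221, 193, 216 and 218 in ad libitum hearts and 170, 166, 168, 168 and 194 in calorie restricted hearts. Here 4 of the 5 calorie restricted arrays lay within a narrow band and replicate 5 was just above the lowest ad libitum value. The change was -0.29 ± 0.081 (SE), with a limma adjusted p of 0.0492. Groups did not overlap for 5 of the 76 genes, against 9.21% of all genes.

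The calls, more than the size of the changes, depended on few arrays. With calorie restricted replicates 2 and 3 left out, which leaves 3 arrays in the group, no member was called lower: the changes were -0.31 for Mrpl3 (limma adjusted p = 0.139), -0.34 for Mrpl34 (0.190), -0.39 for Mrpl28 (0.129) and -0.26 for Mrpl37 (0.208). In that fit 2.63% of all genes were called, and 1 member, Mrps10, was called higher (0.39, adjusted p = 0.0382; 0.27 and 0.113 with all arrays). With single arrays left out, the count of lower members was 0 without calorie restricted replicate 2, without calorie restricted replicate 3 or without ad libitum replicate 3. It was 1 without ad libitum replicate 1 or 4, and 2 without calorie restricted replicate 1 or 4. Calls among all genes tested also shifted, with 724 in the main fit. They numbered 494, 510 and 444 without calorie restricted replicate 2, calorie restricted replicate 3 and ad libitum replicate 3. They numbered 519 and 445 without ad libitum replicates 1 and 4, and 641 and 735 without calorie restricted replicates 1 and 4. Each of the 9 arrays of the 2 groups was left out in turn, and Mrpl28 kept its call only without calorie restricted replicate 5. Without calorie restricted replicate 4, Mrps26 was also called higher. Adding the level of the atrial markers as a covariate left 0 members called lower, and a fit of the 2 groups alone also left 0. In these 2 fits 332 and 353 of all genes tested were called. Averaged over all probe sets of each gene, the changes were -0.22 for Mrpl3, -0.27 for Mrpl34 and -0.15 for Mrpl28, none of them called.

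Against wild type hearts, which differ from calorie restricted hearts in genotype and in feeding, 3 large subunit genes fell and 2 small subunit genes rose. This was 5 of 76 genes (6.58%), below the 11.3% called among all genes tested, of which 6.24% were lower and 5.02% higher. The median change was -0.029, against 0.0025 over all genes, and 15 genes had an unadjusted p under 0.05 (24.5% of all genes). For 8 genes the groups did not overlap, against 13.6% of all genes.

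Mrps10, a conserved protein in the head of the small subunit, read 234, 212, 212 and 224 in wild type hearts and 316, 278, 252, 298 and 370 in calorie restricted hearts. Every calorie restricted array was above every wild type array, with replicates 2 and 3 the lowest of the 5. The log2 change was 0.44 ± 0.095 (SE; limma adjusted p = 0.00648), a 1.35-fold higher level. Mrps26, a small subunit protein specific to mitochondria, read 356, 364, 320 and 372 in wild type hearts and 502, 461, 454, 385 and 490 in calorie restricted hearts. Its groups did not overlap, and it rose by 0.37 ± 0.085 (SE; limma adjusted p = 0.00978). The only other probe set of Mrps10 and that of Mrps26 were under the filter on low signal, so neither gene had a second reading above it. Averaged over both probe sets of each gene, the dim one included, Mrps10 was at -0.038 against wild type (limma adjusted p = 0.928) and Mrps26 at 0.16 (0.238).

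Mrpl3 fell by 0.46 ± 0.094 on the log2 scale against wild type (SE; limma adjusted p = 0.00467), from wild type signals of 829, 711, 670 and 674. Both other Mrpl3 probe sets above the filter on low signal were lower too, by -0.48 (called at an adjusted p of 0.00999 over probe sets) and -0.40 (not called). Mrpl34 read 681, 519, 501 and 528 in wild type hearts and fell by 0.50 ± 0.12 (SE; limma adjusted p = 0.0105). Mrpl36, a very small zinc-binding protein of the large subunit, read 425, 366, 364 and 366 in wild type hearts and 322, 247, 253, 312 and 330 in calorie restricted hearts. For these 3 genes wild type replicate 1 was the highest wild type array, and calorie restricted replicates 2 and 3 were the lowest pair for Mrpl34, Mrpl3 and Mrpl36. The change of Mrpl36 was -0.38 ± 0.10 (SE; limma adjusted p = 0.0211). Averaged over all their probe sets, Mrpl3 was at -0.28 (limma adjusted p = 0.133) and Mrpl34 at -0.33 (0.0842).

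Without calorie restricted replicates 2 and 3, the calls of Mrps10 (0.56, limma adjusted p = 0.00315), Mrps26 (0.37, 0.0467) and Mrpl3 (-0.37, 0.0464) were kept. Those of Mrpl34 (-0.39, adjusted p = 0.0864) and Mrpl36 (-0.24, 0.152) were lost, and the median over the 76 genes changed sign to 0.0097. The share of all genes called in that fit was 6.67%. Mrpl36 also missed the threshold without wild type replicate 1 (adjusted p = 0.0742), and without replicate 2 or replicate 3 of the calorie restricted group (0.0550 and 0.0533). Without wild type replicate 1 the count of members called higher was 4, with Mrpl17 and Mrpl35 added, and without calorie restricted replicate 1 the count called lower was 5, with Mrpl38 and Mrps15 added. Among all genes tested 1088 and 1459 were called in these 2 fits, against 1504 with all arrays.

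**Figure D3:**
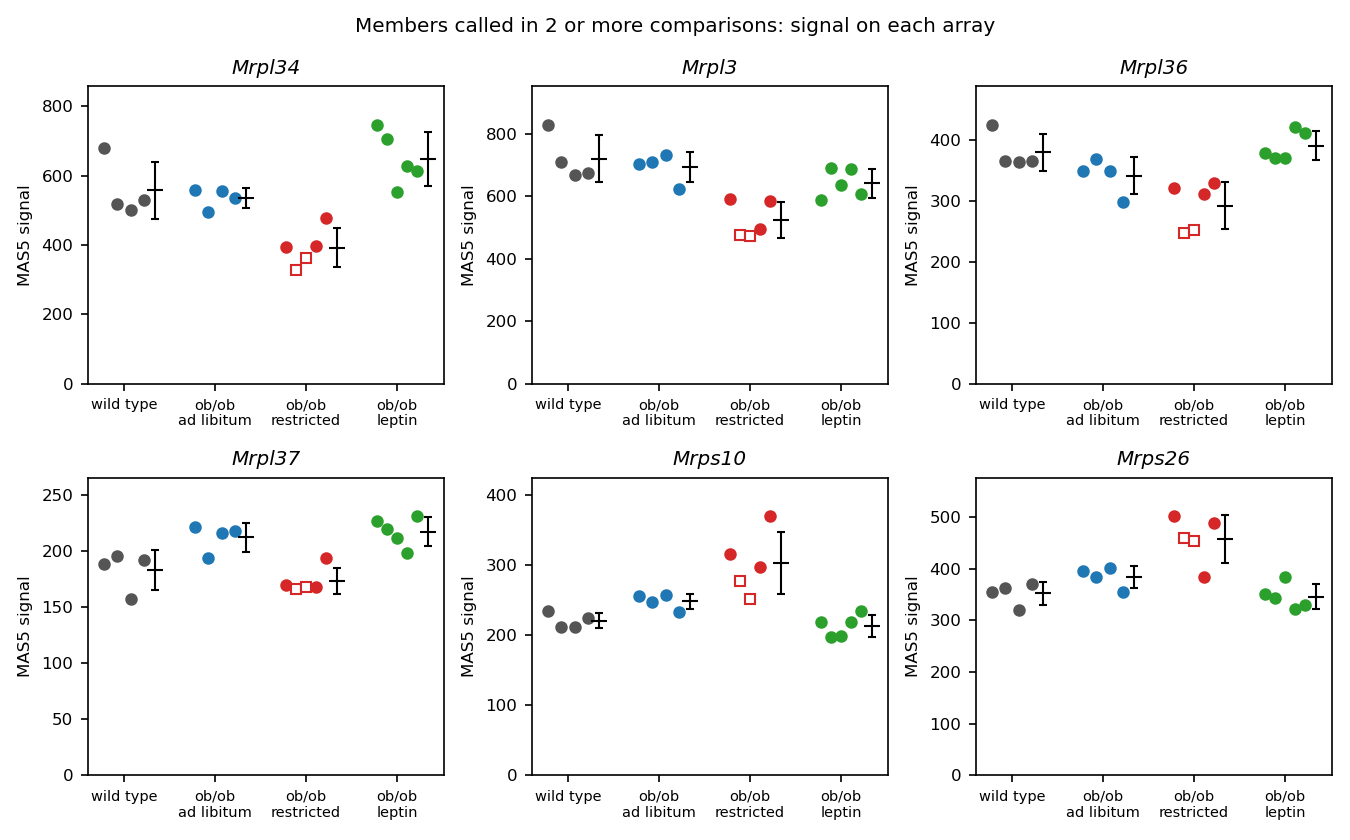
MAS5 signal on each array (linear vertical axes from 0) of the 6 genes called in more than 1 comparison, by group; points are arrays, open squares are calorie restricted replicates 2 and 3, and black marks are means ± SD. Mrpl34, Mrpl3, Mrpl36 and Mrpl37 are lowest on average in calorie restricted hearts, and Mrps10 and Mrps26 are highest there.

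Leptin against calorie restriction compares ob/ob mice of matched food intake with and without leptin, and held the most calls. With leptin, 8 genes were higher and 3 lower. The 8 were the large subunit genes Mrpl34, Mrpl36, Mrpl37, Mrpl38 and Mrpl3 and the small subunit genes Mrps15, Mrps6 and Mrps21, and the 3 were the small subunit genes Mrps10, Mrps26 and Mrps18c. These 11 of 76 genes (14.5%) stood beside 13.6% of all genes tested, of which 7.91% were higher and 5.73% lower, so the number of calls was near that of the array as a whole. The median change was 0.065, against -0.025 over all genes, with 55 genes above 0 and 22 at an unadjusted p under 0.05 (26.9% of all genes). The median was 0.019 without calorie restricted replicates 2 and 3. No large subunit gene was called lower, while the 29 small subunit genes split into 3 higher and 3 lower.

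Mrpl34 differed most in size. Its signals were 747, 705, 552, 627 and 612 with leptin, against 394, 329, 362, 396 and 479 under calorie restriction, and the lowest leptin array was above the highest calorie restricted array. The log2 change was 0.72 ± 0.11 (SE; limma adjusted p = 4.52e-04), or 1.65-fold. The mean signal of 648 ± 77.4 with leptin (SD, n = 5) stood beside 557 ± 83.2 in wild type (SD, n = 4) and 537 ± 28.5 in ad libitum hearts (SD, n = 4). The dimmer second probe set of the gene gave 0.097 and was not called, and the mean of both gave 0.41, called at a limma adjusted p of 0.0201.

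Mrpl36 read 379, 371, 370, 421 and 411 with leptin, all above its calorie restricted range of 247 to 330, for a change of 0.42 ± 0.094 (SE; limma adjusted p = 0.00706). Mrpl37 read 227, 220, 211, 198 and 231 with leptin, all above its calorie restricted range of 166 to 194, for a change of 0.32 ± 0.077 (SE; limma adjusted p = 0.0104). Both genes therefore separated the groups without overlap. Mrpl3, at 588, 689, 636, 686 and 608 with leptin, overlapped the calorie restricted group at 588 against 591. Its change was 0.29 ± 0.089 (SE; limma adjusted p = 0.0375). Its other probe sets above the filter on low signal gave 0.29 and 0.45, of which the second was called (adjusted p = 0.0479 over probe sets). Mrpl38, a protein found only in mitochondrial ribosomes, read 352, 313, 305, 287 and 366 with leptin and 299, 245, 240, 267 and 269 under calorie restriction. It rose by 0.29 ± 0.083 (SE; limma adjusted p = 0.0269), but a dim further probe set, with a mean signal of 19.7, gave -0.47 without being called.

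Among small subunit genes that were higher with leptin, Mrps6 was the most even within the calorie restricted group. It read 510, 512, 498, 516 and 528 there and 669, 618, 580, 588 and 577 with leptin, with no overlap. The change was 0.24 ± 0.066 (SE; limma adjusted p = 0.0244), and its other probe set gave 0.10, not called. Mrps15 read 399, 374, 365, 325 and 345 with leptin and 331, 271, 274, 296 and 305 under calorie restriction, overlapping at 325 against 331. Its change was 0.29 ± 0.076 (SE; limma adjusted p = 0.0186), with 0.25, not called, in its other probe set above the filter on low signal. Mrps21 read 840, 969, 791, 814 and 952 with leptin and 707, 631, 614, 797 and 748 under calorie restriction, overlapping at 791 against 797, for a change of 0.32 ± 0.090 (SE; limma adjusted p = 0.0253). Its dim second probe set, with a mean signal of 19.8, gave -0.017, not called. Averaged over all probe sets of each gene, the changes were 0.29 for Mrpl3, 0.17 for Mrps6, 0.092 for Mrps15 and 0.15 for Mrps21, none of them called. Mrps6, Mrps15 and Mrps21 all have bacterial counterparts.

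The 3 genes that were lower with leptin were high in the calorie restricted group. Mrps10 read 219, 197, 199, 218 and 234 with leptin, all below its calorie restricted range of 252 to 370. The change was -0.49 ± 0.089 (SE; limma adjusted p = 0.00195), so calorie restricted hearts were 1.40-fold higher. Mrps26 read 351, 344, 385, 322 and 330 with leptin, with the groups touching at 385, the highest leptin and the lowest calorie restricted value. Its change was -0.40 ± 0.080 (SE; limma adjusted p = 0.00378). Mrps18c, a paralog of Mrps18a, read 344, 383, 390, 365 and 403 with leptin and 525, 447, 406, 508 and 527 under calorie restriction, with no overlap, for a change of -0.35 ± 0.097 (SE; limma adjusted p = 0.0245). Averaged over both of their probe sets, Mrps10 was at -0.42 (limma adjusted p = 0.0607) and Mrps26 at -0.23 (0.0536). In this comparison the groups did not overlap for 8 of the 76 genes, against 10.9% of all genes.

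**Figure D4:**
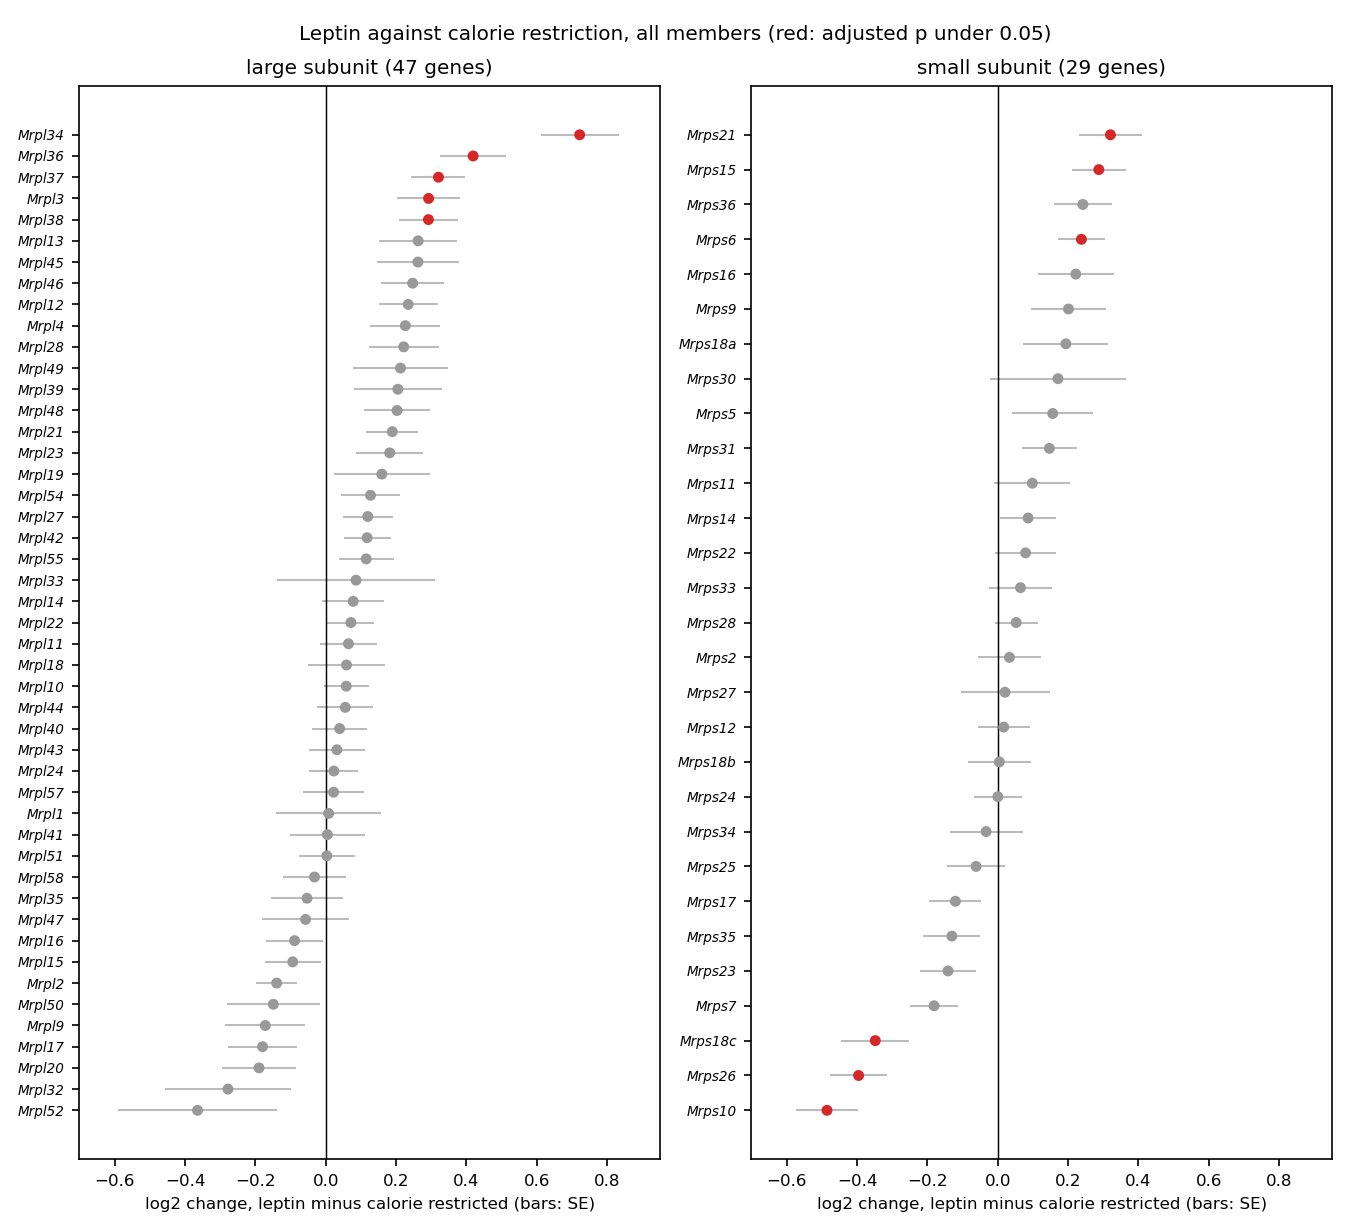
Log2 change, leptin minus calorie restricted, of all 76 genes with bars of 1 SE, large subunit genes on the left and small subunit genes on the right, each sorted by change; red marks an adjusted p under 0.05. Mrpl34 stands furthest to the right at 0.72, and Mrps10, Mrps26 and Mrps18c are the 3 red points on the left side.

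Leaving out the 2 arrays with high atrial signal ended mainly higher calls, and it also left fewer arrays in the group. Whether the atrial signal or the smaller number of arrays ended them was not tested. Without calorie restricted replicates 2 and 3, 1 of 8 higher calls was left, Mrpl34 (0.61, limma adjusted p = 0.00728), and all 3 lower calls were: Mrps10 (-0.61, 0.00117), Mrps18c (-0.46, 0.0130) and Mrps26 (-0.39, 0.0253). In that fit 7.68% of all genes were called. The lost calls kept their direction, among them Mrpl36 (0.28, adjusted p = 0.0731), Mrpl37 (0.29, 0.0745), Mrps6 (0.22, 0.113) and Mrpl3 (0.20, 0.250). With the atrial covariate, Mrpl34 (0.64, adjusted p = 0.00428) and Mrpl37 (0.30, 0.0446) were called higher and the same 3 genes lower. With single arrays left out, the number called higher was 4 without calorie restricted replicate 2, 3 without calorie restricted replicate 3, and 5 without leptin replicate 1 or leptin replicate 2. In that order 1378, 1429, 1517 and 1395 of all genes tested were called, against 1822 with all arrays. Mrps18c missed the threshold, at adjusted p from 0.0522 to 0.0610, when any 1 of calorie restricted replicates 1, 4 and 5 or leptin replicate 1 was left out. Mrpl3, Mrpl38, Mrps15, Mrps21 and Mrps6 each missed it without calorie restricted replicate 3, and Mrpl3, Mrpl38, Mrps15 and Mrps21 also without replicate 2. Leptin replicates 1 (Mrpl38, Mrps15, Mrps6), 2 (Mrpl3, Mrps21, Mrps6), 3 and 4 (Mrpl3) and 5 (Mrpl38, Mrps21), and calorie restricted replicate 4 (Mrpl3), each ended calls in the same way. Their adjusted p without such an array was between 0.0503 and 0.0942. The calls of Mrpl34, Mrpl36, Mrpl37, Mrps10 and Mrps26 held with any single array of the 2 groups left out.

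Leptin against ad libitum hearts gave no call by limma among the 76 genes, where 0.644% of all genes tested were called, and 6 had an unadjusted p under 0.05 (13.5% of all genes). The median was 0.014, against -0.012 over all genes. Mrpl21 and Mrpl13, both large subunit proteins with bacterial counterparts, had the smallest p-values. Mrpl21 read 472, 450, 498, 470 and 483 with leptin and 396, 363, 424 and 395 on ad libitum food. Mrpl13 read 890, 1007, 790, 783 and 956 with leptin and 756, 615, 720 and 649 on ad libitum food. Neither pair of groups overlapped, and the changes were 0.26 ± 0.079 (SE; limma adjusted p = 0.140) and 0.36 ± 0.12 (SE; limma adjusted p = 0.169). In total, 4 genes had groups that did not overlap, against 5.34% of all genes.

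Leptin against wild type hearts likewise gave 0 calls by limma, where 0.00749% of all genes tested were called, with 3 genes at an unadjusted p under 0.05 (10% of all genes) and a median of 0.041, against -0.0056 over all genes. Mrpl37 was the gene with groups that did not overlap (3.24% of all genes), at 188, 196, 157 and 192 in wild type against 198 to 231 with leptin. Its change was 0.24 ± 0.081 (SE; limma adjusted p = 0.368). Mrps18a had the next smallest p, with signals of 1234, 1167, 965, 1390 and 994 with leptin that overlapped the wild type range, and a change of 0.33 ± 0.13 (SE; limma adjusted p = 0.431).

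The 3 Mrps18 paralogs, which in mammals replace a single bacterial protein at different places in the ribosome, did not follow one another. Mrps18a, which despite its name sits in the large subunit, was called in no comparison. Mrps18b differed by between -0.043 and 0.0045 in the 6 comparisons, with a lowest limma adjusted p of 0.849. Mrps18c was called once, lower with leptin than under calorie restriction, and was 0.17 and 0.23 higher in calorie restricted than in wild type and ad libitum hearts without a call. Mrpl12, the protein of the flexible stalk that recruits translation factors, read 1197, 1306, 1064, 1310 and 1338 with leptin and 1019, 985, 1045, 1087 and 1133 under calorie restriction. It was 0.23 ± 0.084 higher with leptin (SE; limma adjusted p = 0.0769), and passed the threshold at 0.0308 without leptin replicate 3, its lowest leptin array. Mrps12, at the decoding site, had a lowest adjusted p of 0.536. Genes whose human counterparts are mutated in mitochondrial disease with heart involvement were, beside Mrpl3, not called: the lowest limma adjusted p was 0.443 for Mrpl44, 0.496 for Mrps14, 0.202 for Mrps16 and 0.479 for Mrps22. It was 0.423 for Mrps5.

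Other steps of mitochondrial protein synthesis were read from lists chosen by function. Of 4 ribosomal proteins with other symbols, such as Dap3, none was called, with 0 or 1 at an unadjusted p under 0.05 in each comparison. Of 13 translation factors and mRNA-handling proteins, 1 (7.69%) was higher with leptin than under calorie restriction, where 13.6% of all genes tested were called. Of the same list, 1 was higher and 1 lower in calorie restricted than in wild type hearts (15.4%, against 11.3% of all genes). Mrrf, the factor that releases ribosomes after a protein is finished, made up the first and the last of these calls. Its changes were 0.59 ± 0.11 (SE; limma adjusted p = 0.00250) and -0.55 ± 0.12 (adjusted p = 0.00659). Both Mrrf calls were kept without calorie restricted replicates 2 and 3, at 0.43 and -0.39. Guf1, a GTPase of mitochondrial translation, was 0.48 ± 0.12 higher than in wild type (SE; limma adjusted p = 0.0174), but 0.39 (0.116) without those arrays and over the threshold without wild type replicate 2 or 3 (0.0567 and 0.0504). Guf1 was dim, with mean signals of 22.6 ± 2.47 (SD) in calorie restricted and 14.8 ± 2.22 (SD) in wild type hearts.

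Of 20 assembly and rRNA modification factors, 1 was lower in calorie restricted than in ad libitum hearts, 2 were higher with leptin than under calorie restriction and 3 were lower in calorie restricted than in wild type hearts. As shares, 5%, 10% and 15% were near the 5.42%, 13.6% and 11.3% of all genes tested. Mtg1, a GTPase of large subunit assembly, changed by -0.38 ± 0.094 (SE; limma adjusted p = 0.0263) and 0.40 ± 0.088 (adjusted p = 0.00621) in the first and second of these. Noa1, another assembly GTPase, was 0.22 ± 0.066 higher with leptin (SE; limma adjusted p = 0.0369). Tfb1m, which methylates the small ribosomal RNA, fell by 0.60 ± 0.13 against wild type (SE; limma adjusted p = 0.00745), and Mterf3, a factor of large subunit biogenesis, by 0.47 ± 0.11 (adjusted p = 0.00815). Without calorie restricted replicates 2 and 3 none of the 20 was called in these 3 comparisons, with values of -0.24 and 0.26 for Mtg1, 0.21 for Noa1, -0.45 for Tfb1m and -0.33 for Mterf3. Averaged over all probe sets of each gene, against wild type, Tfb1m was at -0.33 (limma adjusted p = 0.412) and Mterf3 at -0.60 (0.0518). Mtg1 against ad libitum lost its call without any 1 of 6 arrays, and Noa1 without any 1 of 7, with adjusted p up to 0.0690 and 0.0963.

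The 16 mitochondrial aminoacyl-tRNA synthetases, which charge tRNAs with amino acids inside the organelle, had calls in the same 3 comparisons. In calorie restricted hearts 2 were lower than in ad libitum hearts, and 1 was higher and 2 were lower than in wild type. With leptin 2 were higher and 1 was lower than under calorie restriction. In this order of comparisons, 12.5%, 18.8% and 18.8% of the list stood beside 5.42%, 11.3% and 13.6% of all genes tested. Cars2, for cysteine, was 0.78 ± 0.10 higher with leptin than under calorie restriction (SE; limma adjusted p = 1.33e-04). It was lower in calorie restricted than in ad libitum (-0.56 ± 0.11, adjusted p = 0.00586) and wild type hearts (-0.69 ± 0.11, adjusted p = 7.66e-04), and all 3 calls were kept without replicates 2 and 3, at 0.65, -0.42 and -0.55. Averaged over all Cars2 probe sets the changes were smaller, at 0.30, -0.29 and -0.33, and the call against ad libitum hearts was lost there (limma adjusted p = 0.101) and with the atrial covariate (0.0605). Tars2, for threonine, fell by 0.65 ± 0.13 against ad libitum hearts (SE; limma adjusted p = 0.00860) and rose by 0.50 ± 0.13 with leptin over calorie restriction (0.0150). Without replicates 2 and 3 its first call was kept at -0.66 (0.0453) and the second lost at 0.51 (0.0627), and with the atrial covariate both were lost (0.0843 and 0.0886). Sars2, for serine, moved the other way, at -0.43 ± 0.10 with leptin (SE; limma adjusted p = 0.00895) and 0.40 ± 0.11 against wild type (adjusted p = 0.0225). Without those 2 arrays Sars2 was at -0.41 (0.0571) and 0.38 (0.0983), and without wild type replicate 2 the latter adjusted p was 0.0867.

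Among 5 genes of mitochondrial DNA transcription, 1 was called, in leptin against calorie restriction, where 13.6% of all genes tested were called. Polrmt, the mitochondrial RNA polymerase, was 0.37 ± 0.078 lower with leptin than under calorie restriction on the log2 scale (SE; limma adjusted p = 0.00512), and -0.37 (0.0294) without replicates 2 and 3. Among 9 nuclear regulators, Ppargc1a, a coactivator of mitochondrial biogenesis, fell by 1.17 ± 0.11 in ad libitum ob/ob against wild type hearts (SE; limma adjusted p = 1.04e-04) and by 0.81 ± 0.11 in calorie restricted hearts (adjusted p = 2.41e-04). With leptin it rose by 0.69 ± 0.11 against ad libitum (SE; limma adjusted p = 0.00870) and by 0.33 ± 0.10 against calorie restricted hearts (adjusted p = 0.0396; 0.27 and 0.196 without replicates 2 and 3). The mitochondrial ribosomal protein genes had no call in either comparison of ad libitum hearts with wild type or with leptin hearts. Of all genes tested, only 0.299% were called in ad libitum against wild type and 0.644% in leptin against ad libitum. Whether the mitochondrial ribosomal protein genes followed Ppargc1a was not tested. Myc was 1.27 ± 0.36 higher in calorie restricted than in ad libitum hearts (SE; limma adjusted p = 0.0483; 1.34 and 0.120 without replicates 2 and 3). Single arrays decided the call of Myc and that of Ppargc1a in leptin against calorie restriction, which were each lost without any 1 of 7 arrays, with adjusted p up to 0.145 and 0.105.

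The cytosolic ribosome and the respiratory chain were set beside the 76 genes. Of 46 cytosolic ribosomal protein genes, 4 were called in leptin against calorie restriction, 3 higher and 1 lower (13.6% of all genes), with a median of 0.085 beside 0.065 for the mitochondrial ribosome. Only Rpl3l was still called without calorie restricted replicates 2 and 3. In leptin against ad libitum the medians were 0.22 and 0.014, with 41 of 46 and 40 of 76 genes above 0 and none called in either list. Of the 80 oxidative phosphorylation subunits, 77 lay above 0 in each ob/ob group against wild type hearts. Their medians there were 0.14 (ad libitum), 0.16 (leptin) and 0.21 (calorie restricted), the last being their largest. In the same order 48, 47 and 29 of 76 mitochondrial ribosomal protein genes lay above 0. In calorie restricted against wild type hearts 4 subunits were called higher (5.02% of all genes). Without those 2 arrays 1 of the 4 calls was left, Ndufb1, and the median was 0.26. After quantile normalization of the signals the oxidative phosphorylation median in that comparison was 0.018 and the cytosolic ribosomal median in leptin against ad libitum was 0.14. These medians are descriptions, and the differences between lists were not tested.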

How the data were processed

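RNA of 18 ventricular samples was hybridised to Affymetrix arrays. Per the submitters' processing notes the authors used MAS5 to obtain the deposited values, which are linear signal intensities, 1 for each probe set of an array. The MAS5 version and settings were not given in the labels or notes used. After trimming 2% of probe sets at either end, every array had a mean of 100.001, and array medians ran from 22.3 to 31.8. Of 45101 probe sets, 64 controls, 932 with several symbols and 9160 unnamed ones were left out, and the other 34945 gave 18193 genes. Names came from the platform annotation, and all 76 members' gene identifiers were found in a RefSeq table (GRCm38.p6).

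For each gene's brightest probe set log2(signal + 5.13) was taken, the pseudocount being the 20th percentile over the table. Genes under the 40th percentile of mean log2 (4.36) were left out, which left 13359. One model with a mean per group was fitted to all 18 arrays in R 4.3.3 with limma 3.58.1, and 6 contrasts and an F test were taken. Tests were two-sided, with Benjamini-Hochberg adjustment over all genes tested and calls under 0.05. Such log2 differences understate changes of dim genes, and the number of arrays limits the precision. The scripts were tested on simulated data.

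The members and all gene lists were chosen with earlier results of these data known. The text names every member called in a comparison, the 2 with the smallest p where none was called, and a fixed set: the Mrps18 paralogs, Mrpl12, Mrps12, Mrps5, Mrpl3, Mrpl44, Mrps14, Mrps16 and Mrps22. It also names up to 2 called genes per pathway list and comparison. Alternatives covered the pseudocount, filter, normalization, probe set choice, groups in the fit, a replicate block, an atrial covariate and arrays left out. Those for the pathway and marker lists were added after seeing the data. Replicate numbers were treated as names only: of 25 pairs of arrays with the same number, 1 had a correlation of deviations over 0.1 (range -0.182 to 0.345).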

Additional observations from a re-analysis of the deposited data

Results flagged for a closer look

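In 24 named genes and the mean level of all 76, each of the 4 groups was searched for an array set far apart from the others, 100 groups in all. The gap had to exceed Dixon's 95% limit, which chance passes in about 1 group in 20, and 6 groups did. Ad libitum replicate 1 was high for Mrpl14, at 928 against 767 to 791 on the other arrays of its group. Wild type replicate 1 was high for Mrpl36, at 425 against 364 to 366. Calorie restricted replicate 5 was high for Mrpl37, at 194 against 166 to 170. Ad libitum replicate 2 was low for Mrps15, at 313 against 337 to 339, and for Mrps18a, at 1079 against 1278 to 1309. Wild type replicate 4 was low for Mrps15, at 313 against 359 to 361.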

How the results depend on the processing

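Of the 20 calls of single members, 9 were kept with any 1 array of the 2 compared groups left out. Mrpl34 in leptin against calorie restriction was the 1 call kept under every alternative run. No median over the 76 genes moved by more than the spread between arrays (0.069). That limit is close to the largest median in size (-0.072), so medians could change sign within it. Over the alternatives the median reached -0.0023 in ad libitum against wild type and -0.025 in leptin against ad libitum, a change of sign in both. In calorie restriction against wild type it was 0.0097 without calorie restricted replicates 2 and 3. Averaging all probe sets of a gene turned Mrpl38 in leptin against calorie restriction to -0.14 and Mrps10 in calorie restriction against wild type to -0.038. It left 3 calls by the F test, 4 higher and 1 lower in leptin against calorie restriction, 1 lower in calorie restriction against ad libitum and 0 higher in calorie restriction against wild type. With only the 2 groups compared in the fit, these counts were 3 higher in leptin against calorie restriction, 0 lower in calorie restriction against ad libitum, and 1 higher and 1 lower in calorie restriction against wild type. The atrial covariate left 2 higher in leptin against calorie restriction and 0 lower in calorie restriction against ad libitum. Without calorie restricted replicates 2 and 3, the F test called 2, leptin against calorie restriction had 1 higher, calorie restriction against ad libitum had 1 higher and 0 lower, and calorie restriction against wild type had 1 lower. A filter at the 60th percentile gave 10 calls by the F test and 6 lower in calorie restriction against wild type, and no filter gave 1 lower in calorie restriction against ad libitum. With that filter 1679 of all genes were called in calorie restriction against wild type (1504 in the main fit). With no filter 524 were called in calorie restriction against ad libitum (724 in the main fit). With the replicate number as a block, 2 members were lower in calorie restriction against ad libitum, but the numbers do not pair the arrays. With each array left out in turn, the F test called 4 to 8. For comparisons of 2 groups, only the arrays of those groups were left out. In calorie restriction against ad libitum 0 to 1 were higher and 0 to 4 lower, in calorie restriction against wild type 2 to 4 higher and 2 to 5 lower, and in leptin against calorie restriction 3 to 11 higher and 2 to 3 lower. Calls among all genes tested shifted as well. The F test called 1912 genes with the filter at the 60th percentile and 1195 with averaged probe sets, against 1635 in the main fit. Without calorie restricted replicates 2 and 3 it called 784. Leptin against calorie restriction had 1350 with averaged probe sets, 1315 with only the 2 groups and 1184 with the atrial covariate, against 1822. The causes of these shifts were not tested. Signal over background could not be judged, since detection calls were not used here.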
